A study of Saccharomyces cerevisiae with 18 samples.

Results

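The genes described here encode TOR kinase complexes and effectors of *Saccharomyces cerevisiae*. They are 10 genes chosen by name, *LST8*, *TOR1*, *TOR2*, *KOG1*, *TCO89*, *SCH9*, *TAP42*, *SIT4*, *NPR1* and *TIP41*, out of 5543 genes named on the arrays. All 10 had spots, 2 on every array. RNA was taken from colonies of 3 related strains grown on solid glycerol medium, 4 and 7 days after inoculation. BR-F is a wild strain that forms structured biofilm colonies, and BR-S is its domesticated derivative with smooth colonies. BR-RF is a feral subclone that arose from BR-S during long starvation in static culture and forms structured colonies again. BR-RF stands for 1 isolated subclone, and no strain carried an engineered deletion or received a drug in these comparisons. Each array compared 2 strains of the same age directly, so the values are ratios between strains, written with the numerator first (BR-F/BR-S, BR-RF/BR-S and BR-RF/BR-F), with 3 arrays for each of the 6 couples and days.

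TOR (target of rapamycin) is a protein kinase that couples growth to nutrients. It works in TOR complex 1 (TORC1), which holds Tor1p or Tor2p with Kog1p, Lst8p and Tco89p and is blocked by rapamycin, and in TOR complex 2 (TORC2), which holds Tor2p and Lst8p with other subunits. TORC1 promotes ribosome synthesis through the kinase Sch9p, and it restrains phosphatases such as Sit4p through their partner Tap42p. When nitrogen is poor, this branch acts on transcription factors of nitrogen catabolite repression and on the kinase Npr1p, which controls permeases for ammonium and amino acids.

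Arrays 1 and 2 of each couple and day were a dye swap of the same pair of RNA samples, per the labels and the design text, and their mean is biological replicate 1, while array 3 alone is biological replicate 2. The methods of the study instead speak of all 3 arrays as biological replicates, and with that reading *SIT4* is called as well in BR-RF/BR-F on day 7 (-0.81, adjusted p = 0.039). Log2 ratios are given with their standard error from the limma fit (SE, n = 2 biological replicates, from a spread pooled over the 6 couples and days). The threshold for calling a gene was an adjusted p of 0.05 (limma, Benjamini-Hochberg over all genes tested in that couple and day). Nothing given in the sources says how separate the colonies of the biological replicates were, so p-values measure the spread between these samples. Between 8040 and 10291 named spots were usable on an array, and the biological replicates correlated at r = 0.354 to 0.757 across genes, which are not independent of each other. In bulk RNA of a colony, fewer cells of a type and less RNA per cell cannot be told apart. The spots hold double-stranded DNA and do not tell the strands of a gene apart. *FLO11*, which encodes the flocculin of structured colonies and was taken as a check of the labels, was measured on 10 of 18 arrays, with a median signal of 0.988 times the local background. Its log2 ratios on day 7 were 0.14 ± 0.14 in BR-F/BR-S (adjusted p = 0.595) and 0.21 ± 0.14 in BR-RF/BR-S (adjusted p = 0.355), and it was not tested in these couples on day 4. These intensities already had the local background subtracted, and the median over arrays on this measure was 1.27 in the dimmer channel. *FLO11* was not called higher in either structured strain, so it did not bear out the labels here. The cause was not tested.

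*LST8* (YNL006W, chromosome XIV), which encodes the WD-repeat subunit that TORC1 and TORC2 share, was lower in each structured strain than in the smooth strain, on day 4 as on day 7, and it was the only one of the 10 genes called in any couple. In BR-F/BR-S its log2 ratios on the 3 arrays were -1.78, -1.68 and -1.56 on day 4, and -1.03, -0.56 and -0.87 on day 7. In BR-RF/BR-S they were -1.39, -1.27 and -0.98 on day 4, and -1.22, -0.48 and -1.10 on day 7. All 12 arrays that held BR-S thus gave less *LST8* signal for the structured strain, whichever dye it carried. Of 2987 genes measured on all 12 of these arrays, 110 (3.68%) had a ratio below 0 on each. When BR-RF was set against BR-F, the ratios were 0.09, 0.31 and 0.40 on day 4 and 0.47, -0.04 and -0.20 on day 7. These 6 arrays lay on both sides of 0, between -0.20 and 0.47.

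**Figure D1:**
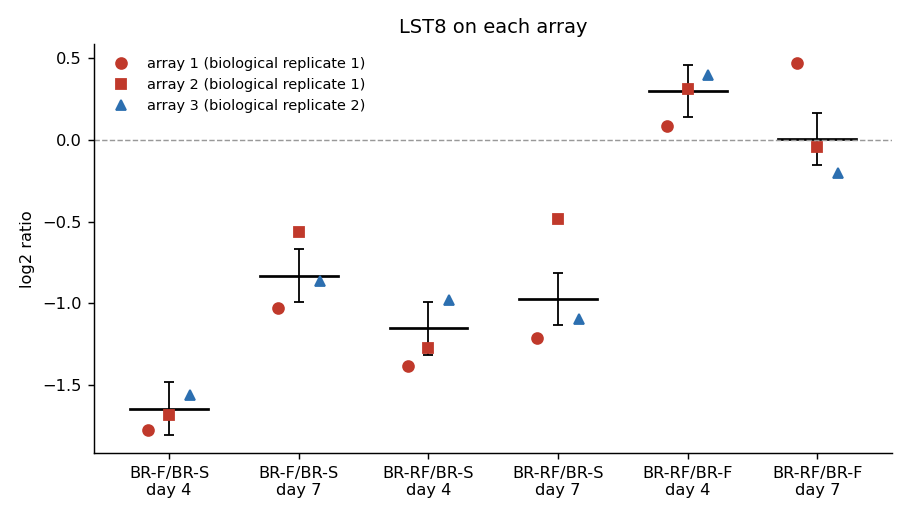
Log2 ratio of *LST8* (vertical axis) on each of the 18 arrays, by couple and day (horizontal axis), with circles and squares for the dye-swapped arrays of biological replicate 1 and triangles for biological replicate 2. Horizontal lines are fitted means and bars their SE. The 12 arrays against BR-S lie between -1.78 and -0.48, and the 6 arrays of BR-RF/BR-F between -0.20 and 0.47.

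The fitted ratio of *LST8* in BR-F/BR-S was -1.64 ± 0.16 on day 4 (upper bound of the 95% interval -1.29, adjusted p = 0.000241), which is a level 3.13-fold lower in the wild strain. On day 7 it was -0.83 ± 0.16 (-1.19 to -0.48, adjusted p = 0.00909), or 1.78-fold lower. In BR-RF/BR-S it was -1.15 ± 0.16 on day 4 (-1.51 to -0.80, adjusted p = 0.00281) and -0.97 ± 0.16 on day 7 (-1.33 to -0.62, adjusted p = 0.00346), the latter a level 1.96-fold lower in the feral strain. Among all genes tested, *LST8* stood at place 8 from the lowest ratio of 4350 in BR-F/BR-S on day 4, and at place 27 of 4506 in BR-RF/BR-S. On day 7 it stood at place 154 of 4902 and at place 188 of 4716. Between the structured strains the ratio was 0.30 ± 0.16 on day 4 (-0.05 to 0.66, adjusted p = 0.328) and 0.01 ± 0.16 on day 7 (-0.35 to 0.36, adjusted p = 0.984). On day 4 the levels of BR-RF and BR-F were thus both called lower than that of BR-S, while the step between BR-RF and BR-F was not called and gives no order. On day 7 the levels of the structured strains did not differ beyond their spread. The calls on day 7 were lost without array 3, which is the whole of biological replicate 2 and leaves the spread to be taken from other couples and days. The ratios were then -0.80 in BR-F/BR-S (adjusted p = 0.151) and -0.85 in BR-RF/BR-S (adjusted p = 0.0952), and the calls on day 4 stood without any 1 array.

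Only 15 of the 3889 genes tested in all 4 comparisons against BR-S (0.386%) were called lower in each of them, and *LST8* was among them. On day 4 alone 26 of 4157 genes (0.625%) were called lower in both structured strains, and on day 7 there were 105 of 4521 (2.32%). The *LST8* ratio against BR-S was closer to 0 on day 7 than on day 4 by 0.81 ± 0.23 in BR-F (0.31 to 1.32). With an adjusted p of 0.254 (unadjusted p = 0.00456) this difference was not called over the 4179 genes tested. The corresponding shift in BR-RF/BR-S was 0.18 ± 0.23 (-0.32 to 0.68, adjusted p = 0.745). Array 3 carried the strains in opposite dyes on these days in each couple, so dye effects enter the difference between days. The 3 couples can also be set against each other, since the ratio of BR-RF/BR-S should equal the sum of the others. For *LST8* that sum was -1.34 on day 4, against -1.15 measured directly, and -0.82 on day 7, against -0.97. The gaps of -0.19 ± 0.28 and 0.15 ± 0.28 lay within their error, and limma called such a gap for 0 of 8 tested TOR genes on day 4 and 0 of 9 on day 7 (0% of all genes on either day, and 0 TOR genes at an unadjusted p under 0.05). All 9 gaps on day 7 were positive, with a median of 0.26, against 0.04 for all genes. Their SEs were 0.28 to 0.48, so gaps of this size could not be told from their error.

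**Figure D2:**
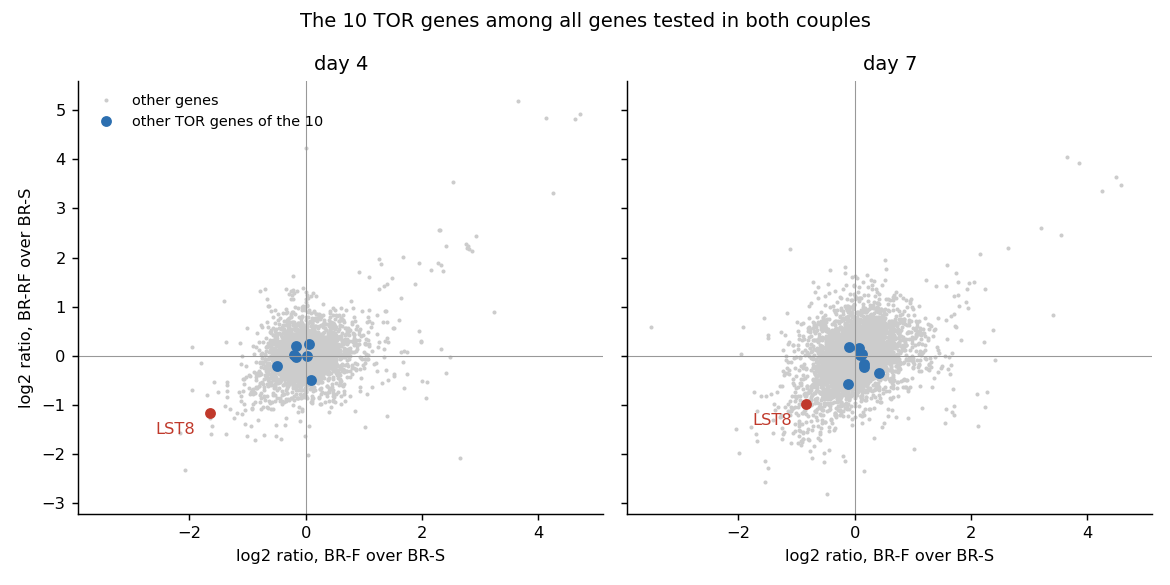
Log2 ratio in BR-RF/BR-S (vertical axis) against that in BR-F/BR-S (horizontal axis) on day 4 (left) and day 7 (right), with a grey point for each gene tested in both couples, blue for TOR genes other than *LST8*, and red for *LST8*. *LST8* lies at -1.64 and -1.15 on day 4 and at -0.83 and -0.97 on day 7, while the other TOR genes shown lie between -0.58 and 0.42 on each axis. Not shown, for want of a test in both couples, are *TCO89* and *NPR1* on day 4 and *SIT4* on day 7. *SIT4* had -0.71 in BR-RF/BR-S on that day.

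All 36 *LST8* spots (2 on each of 18 arrays) were used, with a median signal of 1.94 times the local background in the dimmer channel and a lowest of 0.592, and the median gap between the paired spots of an array was 0.18 on the log2 scale. The SE of *LST8* was the smallest among the 10 genes, which had values of 0.16 to 0.28. The genes beside *LST8* on chromosome XIV are *SIS1* (YNL007C), which encodes an Hsp40 co-chaperone, and *MRP7* (YNL005C), which encodes a mitochondrial ribosomal protein. *SIS1* was not called where it was tested, with -0.30 ± 0.22 on day 4 and -0.40 ± 0.22 on day 7 in BR-F/BR-S (adjusted p = 0.534 and 0.274), and in BR-RF/BR-S only biological replicate 1 measured it. Its ratio was below 0 on 9 of the 10 arrays against BR-S that measured it, with a lowest value of -1.20, a median of -0.70 and a highest of 0.15. With loess by print block *SIS1* was called on day 7 in BR-F/BR-S (-0.61, adjusted p = 0.0275). *MRP7* was lower on day 7 in BR-RF/BR-S (-0.62 ± 0.17, adjusted p = 0.0317) and in BR-RF/BR-F (-0.57 ± 0.17, adjusted p = 0.0448). Neither call stood without array 2 or without array 3 (-0.58 to -0.33). In BR-F/BR-S *MRP7* had 0.12 ± 0.17 and -0.22 ± 0.17 on days 4 and 7, where *LST8* was called lower.

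None of the other TORC1 subunits was called. *TOR1* (YJR066W), which encodes the kinase found in TORC1, had log2 ratios of -0.68, -0.63 and -0.34 on the 3 arrays of BR-F/BR-S on day 4. All of these were below 0, and the fitted ratio of -0.50 ± 0.19 was not called (adjusted p = 0.191). With loess by print block (-0.67, adjusted p = 0.0141) and in a fit of strains over all couples (-0.50, adjusted p = 0.0339) it was. On day 7 the arrays gave -0.05, 0.10 and 0.30, with a fitted ratio of 0.16 ± 0.19 (adjusted p = 0.644). The shift of *TOR1* between these days was 0.66 ± 0.27 (adjusted p = 0.508). Its paralog *TOR2* (YKL203C), which encodes the kinase that TORC2 requires, had -0.17 ± 0.22 and 0.08 ± 0.22 in this couple, and between -0.17 and 0.41 over all 6 couples and days. As the spots hold whole coding regions, signal shared between these paralogs cannot be told apart.

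*KOG1* (YHR186C), which encodes the yeast counterpart of raptor, was measured on all 18 arrays, and its 12 ratios against BR-S lay between -0.22 and 0.24 with a median of 0.11. In BR-RF/BR-F on day 4 its arrays gave 0.10, 0.15 and 0.73, and the fitted ratio of 0.43 ± 0.17 was not called (adjusted p = 0.197). *TCO89* (YPL180W), which encodes a TORC1 subunit needed for full activity, was measured on 11 arrays only. It was not tested against BR-S on day 4, and its 4 tested ratios ran from -0.19 to 0.16. Its median signal was 0.696 times the local background, the lowest of the 10 genes.

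**Figure D3:**
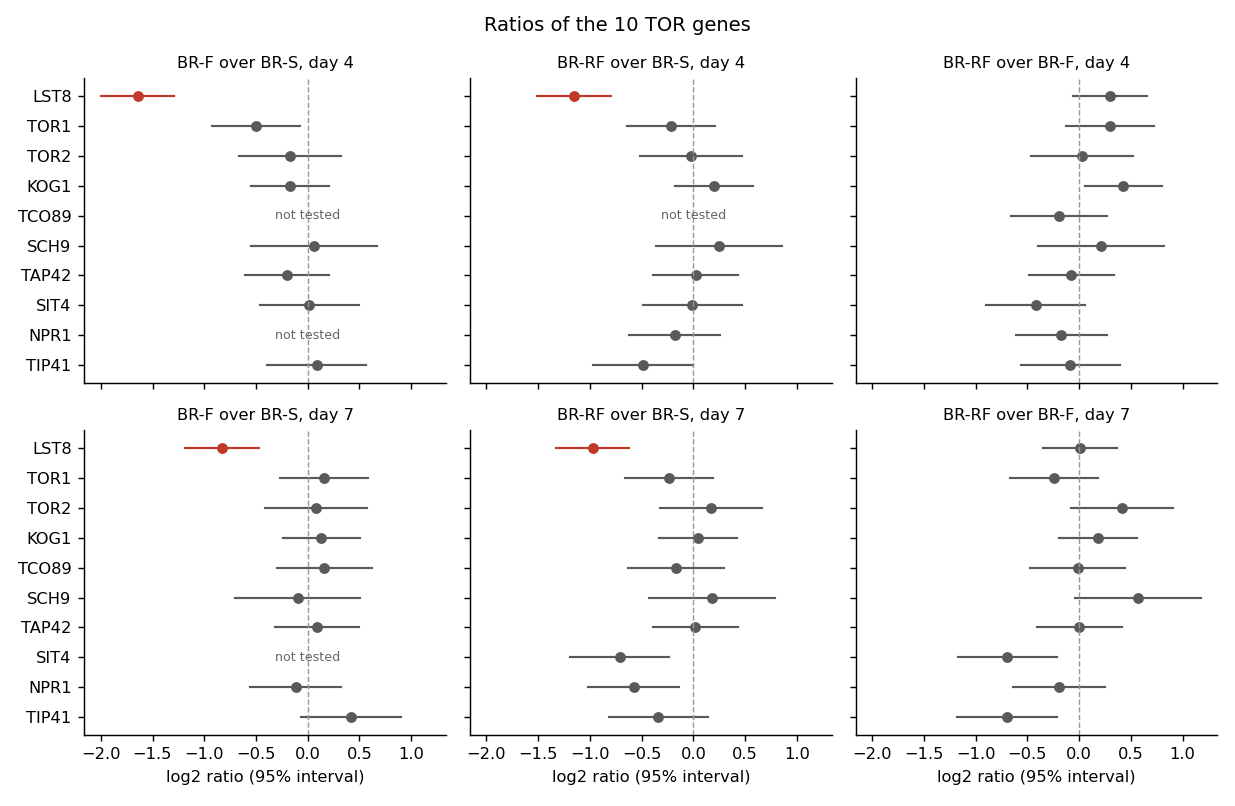
Fitted log2 ratio (horizontal axis) of each of the 10 genes (vertical axis) in the 3 couples (columns) on days 4 and 7 (rows), with 95% intervals. Genes called at an adjusted p under 0.05 are red. The 4 red points are *LST8* against BR-S, from -1.64 to -0.83, and 45 of the 50 other tested ratios of the 9 other genes have intervals within 1 on the log2 scale on either side of 0.

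Among the effectors, *SCH9* (YHR205W), the AGC kinase that TORC1 phosphorylates, had the largest scatter. Its arrays in BR-RF/BR-F gave 0.47, 1.03 and -0.33 on day 4 and -0.16, 0.25 and 1.09 on day 7. The fitted ratio on day 7 was 0.57 ± 0.28 (-0.04 to 1.18, adjusted p = 0.2005), and against BR-S the ratios lay between -0.10 and 0.25. *TAP42* (YMR028W), whose product binds the catalytic subunits of type 2A phosphatases, showed the narrowest range, from -0.20 to 0.09 over the 6 couples and days, with its lowest adjusted p at 0.648. Its arrays in BR-F/BR-S on day 4 gave 0.17 and -0.58, with no value from array 2. Its spots and those of *SCH9* were dimmer than those of *FLO11* (0.988), with median signals of 0.782 and 0.922 times the local background. With signals this low, the narrow range cannot be read as a steady level.

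*SIT4* and *TIP41* came closest to the threshold after *LST8*. *SIT4* (YDL047W), a type 2A-related phosphatase bound by Tap42p, gave -1.05, -0.29 and -0.75 on the arrays of BR-RF/BR-S on day 7. Its fitted ratio of -0.71 ± 0.22 there just missed the threshold (-1.19 to -0.23, adjusted p = 0.0528). In BR-RF/BR-F on day 7 the arrays gave -1.80, -0.27 and -0.35, all below 0 but with the dye-swapped arrays of replicate 1 far apart. The fitted ratio was -0.69 ± 0.22 (adjusted p = 0.0594). On day 4 the ratios of *SIT4* were -0.01 ± 0.22 in BR-RF/BR-S and -0.42 ± 0.22 in BR-RF/BR-F (adjusted p = 0.317), while in BR-F/BR-S it had 0.02 ± 0.22 on day 4 and was not tested on day 7. Without array 2 both day 7 ratios were past the threshold, at -0.90 in BR-RF/BR-S (adjusted p = 0.0173) and -1.08 in BR-RF/BR-F (adjusted p = 0.0488), and the latter was so without array 3 too (-1.04, adjusted p = 0.0495). Without array 1 the ratios were smaller, at -0.52 (adjusted p = 0.194) and -0.31 (adjusted p = 0.267).

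*TIP41* (YPR040W), whose product binds Tap42p and counters its hold on the phosphatases, gave 0.17, -0.56 and -1.20 on the arrays of BR-RF/BR-F on day 7. The arrays of replicate 1 lay on both sides of 0, and the fitted ratio was -0.70 ± 0.22 (-1.18 to -0.21, adjusted p = 0.0551). Without array 1 it was -0.88 and past the threshold (adjusted p = 0.0061), while it was -0.51 without array 2 (adjusted p = 0.233) and -0.19 without array 3 (adjusted p = 0.636). In BR-F/BR-S on day 7 *TIP41* had 0.42 ± 0.22 (adjusted p = 0.249), and in BR-RF/BR-S it had -0.49 ± 0.22 on day 4 (adjusted p = 0.280) and -0.34 ± 0.22 on day 7 (adjusted p = 0.316). *NPR1* (YNL183C) encodes the kinase that keeps permeases at the cell surface when nitrogen is poor. It was measured on 2 of 3 arrays of BR-RF/BR-S on day 7, at -0.46 and -0.69, with a fitted ratio of -0.58 ± 0.20 (-1.02 to -0.14, adjusted p = 0.0795). Its other tested ratios ran from -0.20 to -0.12, and it was not tested in BR-F/BR-S on day 4. The median signal of *NPR1* was 0.946 times the local background.

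In counts, 1 of the 8 genes tested was called in BR-F/BR-S on day 4, where 4.69% of all 4350 genes were called, and 1 of 9 on day 7, against 11.2%. In BR-RF/BR-S, 1 of 9 was called on day 4, against 4.79%, and 1 of 10 on day 7, against 15.9%. In BR-RF/BR-F limma called 0 of 10 on either day, where 5.89% of all genes were called on day 4 and 15.2% on day 7. At an unadjusted p under 0.05 there was 1 gene on day 4 (*KOG1*) and 2 on day 7 (*SIT4* and *TIP41*), against 20.2% and 28.9% of all genes. The median ratio of the 10 genes was between -0.20 and 0.09 in the 6 couples and days, and the median of all genes between -0.01 and 0.00. Without *LST8*, 7 of the 50 ratios tested had an unadjusted p under 0.05 and 0 were called. In the couples with BR-S the share of all genes under that p was not counted, so these 7 cannot be read as an excess. The shares counted, in BR-RF/BR-F, were the 20.2% and 28.9% above. Intervals lay within a 1.5-fold change in either direction for 20 of these 50 ratios, and a difference of 1.5-fold was not excluded in the rest. In the tests of day 7 against day 4, limma called 0 of 10 genes in BR-RF/BR-F, 0 of 7 in BR-F/BR-S and 0 of 9 in BR-RF/BR-S. Of all genes, 0.523%, 0.311% and 0.352% were called in these tests. At an unadjusted p under 0.05 the 10 genes gave 0, 2 (*LST8* and *TOR1*) and 1 (*SIT4*), against 9.64%, 8.83% and 15.5% of all genes.

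Over the 12 ratios of biological replicates, the pattern of *LST8* was most like that of *KOG1* among the 6 other TOR genes measured in all of them (Pearson r = 0.725), and r was between -0.16 and 0.46 for the rest. Among 3834 genes measured in all 12 ratios the 5 most like it were *SPR6* (r = 0.954), *SPS100* (0.933), YMR253C (0.928), *HOG1* (0.911) and *ISR1* (0.908). These ratios share strains and arrays, and the order is a description. *SPS100*, a spore wall gene, was lower than in BR-S on day 4 in BR-F (-1.65, adjusted p = 0.000672) and BR-RF (-1.27, adjusted p = 0.00386). *SPR6*, *HOG1* (the kinase of the osmotic stress response) and *ISR1* were called lower on day 4 in BR-F/BR-S only, at -0.83, -0.65 and -0.56. In the direct comparison of the structured strains, BR-RF/BR-F on day 4, they had 0.44, 0.21 and 0.12 and were not called (adjusted p = 0.147, 0.448 and 0.688).

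Beyond the 10 genes, 84 other genes of the pathway were listed by function, of which 81 had spots. In BR-F/BR-S limma called 1 of 70 on day 4 and 9 of 78 (11.5%, 5 higher and 4 lower) on day 7, where 4.69% and 11.2% of all genes were called. In BR-RF/BR-S it called 1 of 72 on day 4, against 4.79% of all genes, and 17 of 73 (23.3%, 5 higher and 12 lower) on day 7, against 15.9%. In BR-RF/BR-F it called 3 of 77 (3.9%, 1 higher and 2 lower) on day 4 and 10 of 78 (12.8%, 5 in each direction) on day 7, where the shares of all genes were 5.89% and 15.2%. Without array 3 only 11 of these 41 calls remained, and without array 1 and array 2 there were 31 and 35. The medians of the 81 genes lay between -0.13 and 0.01. On the left arm of chromosome XV the median gene had a ratio of 0.55 to 0.70 in the 4 couples and days with BR-RF, and on chromosome IX one of 0.29 to 0.37, so pathway genes there are named with their chromosome. None of the 10 TOR genes lies in either place. No pathway gene was called in the same direction in both structured strains against BR-S on day 4. On day 7, at most 73 pathway genes were tested in both couples. Of these, 3 were higher (*MEP2*, *GAP1* and *PKH1*) and 3 lower (*SLM4*, *TOD6* and *YAK1*), against 1.57% and 2.32% of all genes tested in both couples.

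The highest ratios of pathway genes were those of 2 permeases under nitrogen control. *MEP2* (YNL142W), the high-affinity ammonium permease and ammonium sensor, gave 4.40, 3.01 and 3.38 on the arrays of BR-F/BR-S on day 7 and 2.88, 2.41 and 2.25 in BR-RF/BR-S. All 6 arrays were far above 0, with fitted ratios of 3.54 ± 0.28 (adjusted p = 0.000152) and 2.45 ± 0.28 (adjusted p = 0.000946). The day 4 ratios were above 0 in BR-F/BR-S (1.41 ± 0.28, adjusted p = 0.0203) and below 0 in BR-RF/BR-F (-1.13 ± 0.28, adjusted p = 0.0479), both called, the latter not without array 3 (-1.34, adjusted p = 0.172). Array 1 gave no value for the former, which was 0.69 with loess by print block and still called. *GAP1* (YKR039W), the general amino acid permease that Npr1p protects, gave 1.01, 1.81 and 2.52 in BR-F/BR-S and 2.15, 1.13 and 1.34 in BR-RF/BR-S on day 7. Fitted ratios were 1.97 ± 0.25 (adjusted p = 0.00121) and 1.49 ± 0.25 (adjusted p = 0.004), the latter with an adjusted p of 0.0561 without array 3. *MEP1*, another ammonium permease, was higher in BR-F than in BR-S on day 7 (0.90 ± 0.20), and *MEP3* was lower in BR-RF than in BR-F (-0.71 ± 0.17). Without array 3 neither was called (0.80 and -0.85), *MEP3* was not called without array 1 either (-0.40), and the *MEP* genes are relatives whose spots may share signal. Of the 9 tested genes in this list of permeases and their regulators, 3 rose and 0 fell in BR-F/BR-S on day 7, and 2 rose and 0 fell in BR-RF/BR-S, where 11.2% and 15.9% of all genes were called. The medians of these 9 genes were 0.02 and 0.08, with 3 of them below 0 in each couple.

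**Figure D4:**
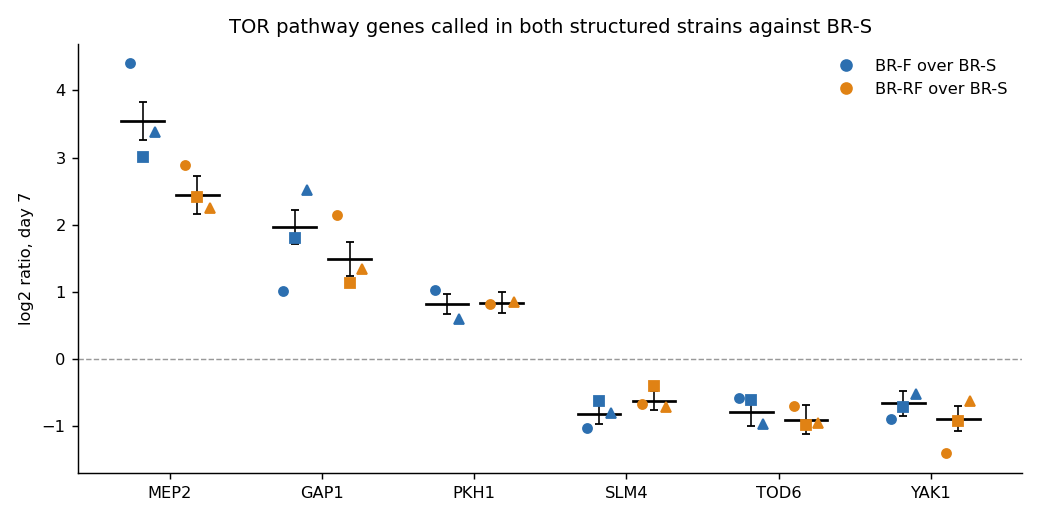
Log2 ratio on day 7 (vertical axis) of the 6 TOR pathway genes called with the same sign in BR-F/BR-S (blue) and BR-RF/BR-S (orange), with circles, squares and triangles for arrays 1, 2 and 3, lines for fitted means and bars for SE. *MEP2* reaches 4.40 and *GAP1* 2.52, *PKH1* lies near 0.8, and *SLM4*, *TOD6* and *YAK1* lie below 0 on every array.

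Upstream of TORC1, *SLM4* (YBR077C), a subunit of the EGO complex that holds the Rag GTPases on the vacuole, gave -1.03, -0.62 and -0.81 on the arrays of BR-F/BR-S on day 7 and -0.66, -0.39 and -0.71 in BR-RF/BR-S. The fitted ratios were -0.82 ± 0.14 (adjusted p = 0.00566) and -0.62 ± 0.14 (adjusted p = 0.0172). Without array 3 they were -0.82 and -0.53 and no longer called. *SLM4* was the only one of 8 tested genes of its list called in BR-F/BR-S on day 7, where 11.2% of all genes were called. In BR-RF/BR-S it was 2 of 8, against 15.9% of all genes. There *VAM6*, a vacuolar tethering protein, was lower as well (-0.67 ± 0.18, adjusted p = 0.0292, and -1.06 without array 3). In the SEA complex, which regulates TORC1 at the vacuole, *RTC1*, on the left arm of chromosome XV where the median ratio was 0.70, was higher in BR-RF than in BR-S on day 4 (0.63 ± 0.15) and *SEA4* lower on day 7 (-0.83 ± 0.20). Neither stood without array 3 (0.71 and -0.76), and *RTC1* was not called without array 1 (0.55) or with loess by print block (0.40). Among TORC2 subunits *BIT61* was the only gene called, at 0.92 ± 0.25 in BR-RF/BR-S on day 7 (1.14 without array 3 and then not called). It was 1 of 6 subunits tested there, against 15.9% of all genes. Array 2 gave no value for it, and with loess by print block the ratio was 0.43 and not called. *PKH1* (YDR490C), a kinase that activates the TORC2 substrates Ypk1p and Ypk2p, was higher on day 7 in BR-F (0.82 ± 0.15, adjusted p = 0.00691) and in BR-RF (0.84 ± 0.15, adjusted p = 0.00493). The dye-swapped array 2 gave no value for it in either couple. With loess by print block its ratios fell to 0.37 and 0.24 and neither was called, and without array 3 that in BR-RF was not called (0.83, adjusted p = 0.0917). Its paralog *PKH2*, on the left arm of chromosome XV with a median ratio of 0.64, rose in BR-RF/BR-F on day 7 (0.62 ± 0.18, and 0.33 without array 3, not called).

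In the phosphatase branch of *TAP42*, *SIT4* and *TIP41*, 13 further genes were listed. In BR-RF/BR-S on day 7, where 15.9% of all genes were called in either direction, 3 of 11 tested were lower. They were *TPD3* (-0.88 ± 0.16), the scaffold of type 2A phosphatase, *RTS1* (-0.74 ± 0.20), one of its regulatory subunits, and *SAP155* (-0.57 ± 0.17), a partner of Sit4p. Without array 3 their ratios were between -0.76 and -0.59 and none was called. *SAP155* was not called without array 1 either (-0.51). *RRD1*, a phosphatase activator on chromosome IX, was higher in BR-F than in BR-S on day 7 (0.88 ± 0.17), and its paralog *RRD2* rose in BR-RF/BR-F (0.53 ± 0.16). Neither was called without array 3 (0.99 and 0.58), and *RRD2* not without array 1 (0.45). Of the 8 listed regulators of nitrogen and retrograde signalling below TORC1, 1 was called in BR-RF/BR-F on each day, against 5.89% of all genes on day 4 and 15.2% on day 7. *RTG1* on the left arm of chromosome XV, where the median ratio was 0.56, rose on day 4 (1.14 ± 0.23, adjusted p = 0.017), and *RTG2* was lower on day 7 (-0.81 ± 0.17, adjusted p = 0.00866). These were 1.27 and -0.54 without array 3 and not called, and *RTG2* was not called without array 2 (-0.65).

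Of the 11 listed genes of ribosome regulation below Sch9p and TORC1, 0 were called on day 4 in any couple, where 4.69% to 5.89% of all genes were called. In BR-RF/BR-F, 6 of 11 had an unadjusted p under 0.05 (limma) on day 4 and 6 of 11 on day 7. The shares of all genes were 20.2% and 28.9%. The list includes the ribosomal protein genes *RPS6A* and *RPS6B*, so not all of them are regulators. On day 7, 5 of 11 were called in BR-RF/BR-F, *RPS6A* and *RPS6B* among them, against 15.2% of all genes. In BR-F/BR-S it was 2 of 11, against 11.2%, and in BR-RF/BR-S 4 of 11, against 15.9%. All genes were called more often on day 7 too, and for 0 of the listed genes was the difference between days called. *TOD6* (YBL054W), a repressor of ribosome biogenesis genes, was lower in BR-F (-0.78 ± 0.22, adjusted p = 0.0425) and BR-RF (-0.90 ± 0.22, adjusted p = 0.02) than in BR-S, with all 6 arrays between -0.98 and -0.58. Without array 3 it was -0.59 and -0.84 and not called. Its paralog *DOT6* was lower in BR-RF than in BR-S (-0.68 ± 0.15) and than in BR-F (-0.59 ± 0.15), and *SFP1*, an activator of ribosomal protein genes, likewise (-0.90 ± 0.22 and -0.83 ± 0.22). *SFP1* lies on the right arm of chromosome XII, whose median gene over the whole arm had ratios of -0.07 and -0.02 there. Such a median does not describe smaller regions within the arm. The call of *SFP1* against BR-F was lost with median centring (-0.85) and with a replicate block (-0.83). Against BR-S neither gene was called without array 3 (-0.61 for *DOT6* and -0.93 for *SFP1*), and *DOT6* was not called against BR-F either (-0.54). Without array 1 *DOT6* was not called against BR-S (-0.44). *CRF1* (YDR223W), a corepressor of ribosomal protein genes that acts when TORC1 is blocked, gave 1.27, 1.38 and 1.14 on the arrays of BR-RF/BR-F on day 7 (1.23 ± 0.16, adjusted p = 0.000963). Against BR-S it was lower in BR-F (-0.58 ± 0.16, adjusted p = 0.0427) and higher in BR-RF (0.55 ± 0.16, adjusted p = 0.0441). Neither call against BR-S stood without array 3 (-0.49 and 0.54), that in BR-F not without array 2 (-0.52), and that in BR-RF not without array 1 (0.42). *RPS6A* and *RPS6B*, copies of the ribosomal protein whose phosphorylation reports TORC1 activity and whose spots may share signal, rose in BR-RF/BR-F on day 7 (1.15 ± 0.21 and 0.71 ± 0.15). *RPS6B* was not called without array 2 (0.46) or array 3 (0.51).

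Of the quiescence regulators held in check by TORC1 and Sch9p, *YAK1* (YJL141C), a growth-restraining kinase, was lower on day 7 in BR-F (-0.66 ± 0.19, adjusted p = 0.045) and in BR-RF (-0.89 ± 0.19, adjusted p = 0.0107) than in BR-S. All 6 arrays lay between -1.40 and -0.52. In BR-F it was not called without array 1 (-0.62) or array 3 (-0.79). With loess by print block neither call stood, at -0.47 in both strains. *MSN4* (YKL062W), a stress transcription factor, gave -1.10, -1.54 and -2.004 in BR-RF/BR-F on day 4 and -1.27, -1.57 and -1.32 on day 7. The fitted ratios were -1.66 ± 0.24 (adjusted p = 0.0058) and -1.37 ± 0.24 (adjusted p = 0.00379), and the former was -1.32 without array 3 and not called. *MSN4* was also lower in BR-RF than in BR-S on day 7 (-0.84 ± 0.24), as was *IGO1* (-0.65 ± 0.16), a phosphatase inhibitor of the quiescence pathway. Without array 3 neither was called (-1.18 and -0.64). In the list of quiescence regulators 3 of 6 were thus lower in BR-RF/BR-S on day 7 and 0 higher, with a median of -0.62, against 0.00 for all genes. There 15.9% of all genes were called in either direction. Of the 3 autophagy initiation genes 0 were called in any couple, where 4.69% to 15.9% of all genes were called.

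**Figure D5:**
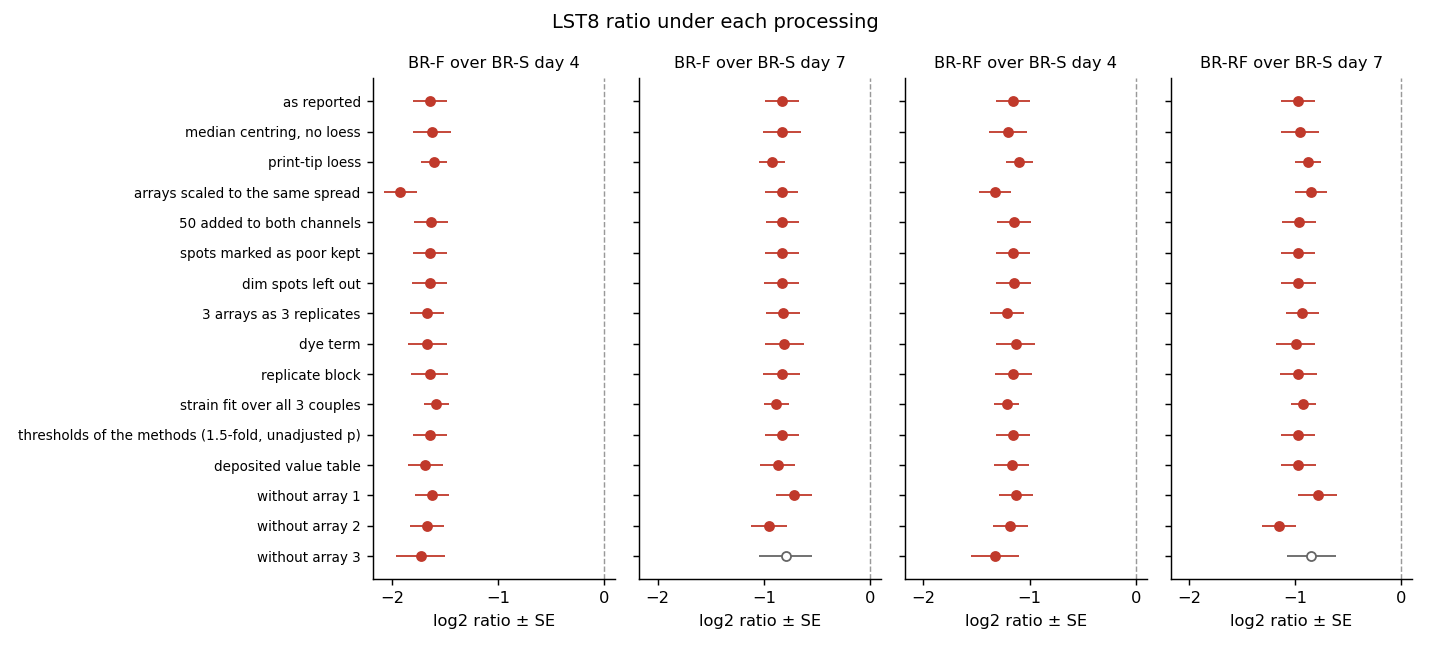
Log2 ratio of *LST8* against BR-S with its SE (horizontal axis) under each way of processing the arrays (vertical axis), in 4 panels for the couples and days. Filled red points were called at the threshold of that setting, and open points were not. The open points are those without array 3 on day 7, at -0.80 and -0.85.

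The ratios of *LST8* against BR-S changed little with the processing. Over 12 settings other than leaving out an array, they lay between -1.92 and -1.58 on day 4 and between -0.92 and -0.81 on day 7 in BR-F, and between -1.33 and -1.10 and between -0.995 and -0.85 in BR-RF. All 12 settings called each of the 4 ratios, with the highest adjusted p at 0.0216. The deposited log2 ratios of the authors gave -1.69 and -0.87 in BR-F and -1.17 and -0.97 in BR-RF on days 4 and 7. Their rows were matched to the intensities used here, as described below, so they are no independent check.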

How the data were processed

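The members and the lists of pathway genes were chosen with earlier results of these data known. The authors scanned spotted open reading frame arrays and deposited, for each array, the median Cy3 and Cy5 intensity of 13056 spots from TIGR Spotfinder (versions 3.1.1 and 3.2.1, and 2 files written by MIDAS 2.22), with the local background already subtracted. They also deposited a table of log2 ratios of Cy5 over Cy3, normalised by LOWESS in MIDAS, which was used as an alternative chosen after seeing the data. For each array its rows were taken with blocks row by row or column by column, whichever correlated better with the intensities (r = 0.747 to 0.985). Array 2 of BR-RF/BR-F on day 4 was the exception, read row by row. The genome build of the array design is not given in the sources used here, and RefSeq R64 served for gene names and for neighbours only.

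Only spots with positive intensity in both channels and no mark of poor quality entered. Arrays were normalised singly by loess (span 0.3, unnamed spots without weight), turned to a common direction by the dyes in the labels, and averaged over the spots of a gene (11146 named spots, 5543 genes, 5 of them not in the annotation). The order of the rows was checked by the brightness of ribosomal protein spots. The 12 ratios of biological replicates were fitted with lmFit and eBayes in limma 3.58.1 (R 4.3.3) with 6 group means and 6 residual degrees of freedom, to which the prior added 4.64. The number of arrays limits the precision, and the median SE was 0.191. Tests were two-sided, adjusted over genes measured in both biological replicates, and the scripts were tested on simulated data. Differences between days and the closure of the 3 couples were contrasts of the same fit. Named were the 10 members, pathway genes called in the same direction in both structured strains, otherwise at most 4 called genes per list, couple and day, the neighbours of *LST8*, the 5 genes most like it, and *FLO11*. *ART1* was matched as *LDB19*, and *EGO2*, *FPR1* and *IGO2* had no matched spots. Alternatives covered centring, print-tip loess, scaling, an offset of 50, spot filters, the 3 arrays as replicates, a dye term, a replicate block, a fit of strains, the thresholds of the study's methods (1.5-fold and an unadjusted p under 0.05, here from limma), and leaving out arrays. Promoter motifs were not analysed here.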

Additional observations from a re-analysis of the deposited data

How the results depend on the processing

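A direction was read from called ratios only. Of 1645 values of the 10 genes under the alternatives, 1613 stayed on their side of the threshold, 2 lost a call (*LST8* on day 7 without array 3), 30 gained one and 0 turned a called direction, while 153 ratios that were not called changed sign. The gains were in *SIT4*, *TIP41*, *NPR1*, *SCH9* and *TOR1* and, at the thresholds of the methods, in differences between days for *LST8*, *TOR1* and *SIT4*. Keeping spots marked as poor changed no count. The cause of the changes below was not tested, apart from fewer samples where an array was left out.

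Counts of the 10 genes moved as follows. In BR-RF/BR-F on day 7, where 0 were called, print-tip loess, the fit of strains and the thresholds of the methods gave 2, and scaling, leaving out dim spots, 3 arrays as replicates and the dye term gave 1, as did leaving out any 1 array. In BR-F/BR-S on day 4, print-tip loess and the fit of strains gave 2 in place of 1. In BR-RF/BR-S on day 7, where 1 was called, print-tip loess, leaving out dim spots and the fit of strains gave 3, and the methods' thresholds and the deposited ratios gave 2. Leaving out 1 array gave 0 to 1 in BR-F/BR-S and 0 to 2 in BR-RF/BR-S on day 7. For day 7 against day 4 the methods' thresholds gave 2 in BR-F/BR-S and 1 in BR-RF/BR-S, where 0 were called.

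Among the 81 pathway genes, the fit of strains gave 14, 16, 8, 21, 6 and 26 calls in BR-RF/BR-F, BR-F/BR-S and BR-RF/BR-S on days 4 and 7 in turn, in place of 3, 10, 1, 9, 1 and 17. On day 4 in BR-RF/BR-F the methods' thresholds gave 7. On day 7 in BR-RF/BR-F median centring gave 5 and scaling 6. On day 4 in BR-F/BR-S print-tip loess and 3 arrays as replicates gave 5, scaling 7 and the methods' thresholds 6. On day 4 in BR-RF/BR-S median centring, the dye term and leaving out chromosome IX, the left arm of XV and the right arm of XII gave 0, dim spots left out 2, the deposited ratios 3, scaling and the methods' thresholds 4, and 3 arrays as replicates 5. Without 1 array the counts ran from 0 to 6 and from 4 to 9 in BR-RF/BR-F on days 4 and 7, from 3 to 11 in BR-F/BR-S on day 7, and from 1 to 2 and from 4 to 18 in BR-RF/BR-S. For day 7 against day 4, where 0 were called, the methods' thresholds gave 5, 3 and 10 in BR-RF/BR-F, BR-F/BR-S and BR-RF/BR-S, the fit of strains 1, 2 and 5, and 3 arrays as replicates 1, 1 and 3. Median centring, print-tip loess and scaling gave 1 in BR-F/BR-S, the deposited ratios gave 2 there and 1 in BR-RF/BR-S, and leaving out 1 array gave 0 to 1 in both.

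Besides the arrays left out, other settings ended calls of single pathway genes and of the *LST8* neighbour *MRP7*. Median centring ended those of *BIT61*, *CRF1* against BR-S, *DOT6* and *SFP1* against BR-F, *MEP3*, *MRP7*, *PKH2*, *RRD2*, *RTC1* and, in BR-F/BR-S, *TOD6* and *YAK1*. Print-tip loess ended those of *BIT61*, *PKH1*, *YAK1*, *RRD2*, *RTC1*, *RTG1* and, against BR-F, *MRP7*. Scaling ended those of *BIT61*, *MEP3*, *PKH2*, *RRD2*, *SAP155*, *DOT6* against BR-F, and *CRF1* and *MSN4* in BR-RF/BR-S. The dye term ended those of *BIT61*, *CRF1* against BR-S, *MEP2* in BR-RF/BR-F, *MEP3*, *MRP7* against BR-F, *PKH2*, *RRD2*, *RTC1*, *RTS1*, *SEA4*, *SFP1* against BR-S and, in BR-F/BR-S, *TOD6* and *YAK1*. Fewer calls were lost with dim spots left out (*MEP3*, *RRD2* and *SAP155*), 3 arrays as replicates (*MEP3*, *MRP7* against BR-F and *SEA4*), the fit of strains (*MEP3*), the deposited ratios (*CRF1* in BR-RF/BR-S and *MRP7* against BR-F) and the methods' thresholds (*CRF1* against BR-S, *MRP7* against BR-F, *RRD2* and *SAP155*).

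Replicates share only their numbers, so no pairing was assumed. A replicate block gave 6 pathway calls in BR-RF/BR-F on day 7 in place of 10 and 0 in BR-RF/BR-S on day 4. It ended the calls of *CRF1* against BR-S, of *MEP2*, *MEP3*, *MRP7*, *PKH2*, *RRD2* and *SFP1* in BR-RF/BR-F, and of *MSN4*, *RTC1* and *SAP155* in BR-RF/BR-S, while all 4 calls of *LST8* stood under it (adjusted p up to 0.0172). In BR-RF/BR-F the deviations of same-numbered replicates on the days correlated at r = -0.543, and with the numbers crossed, an alternative added after seeing the data, 3 of the 10 genes were called on day 7 and 7 pathway genes on day 4. Counts over all genes moved by over 1.5 times under several settings. On day 4, against 292, 204 and 216 calls in BR-RF/BR-F, BR-F/BR-S and BR-RF/BR-S, print-tip loess gave 439, 375 and 327, the fit of strains 689, 568 and 503, and the methods' thresholds 547, 427 and 438. Scaling gave 453 and 400 and 3 arrays as replicates 327 and 359 in the couples with BR-S, and crossed numbers gave 496 in BR-RF/BR-F. On day 7 the fit of strains gave 1331, 1267 and 1433 in place of 760, 548 and 749. Signal limits what can be read: the 10 genes had a median signal of 0.696 to 3.66 times the local background.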
